A study of Mus musculus with 15 samples.

Results

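Immunity-related GTPases are a family of interferon-inducible proteins that act inside single cells, and 6 of their genes were listed for the colon of Il10-/- and C57 mice: Iigp1, Tgtp1, Tgtp2, Igtp, Irgm2 and Irgm1. They were chosen by name, as features of the array whose annotated symbol is a listed gene, and with their genotype differences in these same mice already known. Of the 6 genes, 5 were measured, with 8 of the 42128 features and among 19076 genes tested. Tgtp2 had no feature of its own and was dropped. Because the genotype differences were known when the genes were chosen, they are given below as a description with no test.

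RNA of the full-thickness colon of 15 male mice was hybridized, 1 mouse per array and sample in Cy3, against a pooled Cy5 reference of small intestine, colon, kidney, liver and fetuses of healthy Swiss mice. The groups were Il10-/- mice (B6.129P2-Il10<tm1Cgn>/J, which lack the cytokine interleukin-10 in every cell) at 7 weeks of age (mice 75, 77 and 78), C57 mice (C57BL/6J) at 7 weeks (mice 43, 44, 45 and 46), Il10-/- mice at 12 weeks (mice 92, 94, 95 and 96) and C57 mice at 12 weeks (mice 63, 64, 65 and 66). All mice of both genotypes were housed singly, ate an AIN-76A powder diet and had been given Enterococcus faecalis and Enterococcus faecium strains with intestinal bacteria by mouth soon after arrival. The study compared colon without colitis in Il10-/- mice of 7 weeks, from which mice already inflamed had been left out, and colon with moderate colitis in Il10-/- mice of 12 weeks, each with C57 mice without colitis. The strain and age fields of the labels are the same on every array, so genotype and age were taken from the titles.

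Values are log2 ratios of colon over pool, where a difference of 1 is a 2-fold difference, and a value below 0 means less than in the pool. On single arrays the median of 12 liver genes lay between −4.11 and −2.82 and that of 13 kidney genes between −2.73 and −1.56, against 0.44 to 0.75 for 16 colon epithelium genes, which gives the direction of the ratio. The feature of Il10 itself read between 0.01 and 0.25 in the Il10-/- mice and between −0.17 and 0.18 in the C57 mice. It need not lie in the disrupted part of the gene and does not check the genotype. A log2 ratio to the pool does not rank the genes by abundance, so only differences between mice are compared.

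Interferon gamma, made mainly by T cells and NK cells, acts through its receptor and the transcription factor IRF1 and switches on these GTPases in epithelium, macrophages and other cells. Iigp1, Tgtp1 and Tgtp2 belong to the effectors, which coat and break the vacuoles in which intracellular pathogens such as Toxoplasma gondii live. Igtp, Irgm2 and Irgm1 belong to the regulators, which sit on membranes of the cell itself and keep the effectors inactive there. In human, the related gene IRGM is a known risk gene for Crohn's disease.

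The 5 listed genes of chromosome 11 lie in 2 groups. In the RefSeq table of GRCm38.p6, Irgm1, Tgtp1 and Tgtp2 are near each other with another family gene, Ifi47, and Igtp and Irgm2 are direct neighbours beside Gm12250. Promoter windows of the 5 genes on chromosome 11 are shown because all of them hold the extended core of the interferon-stimulated response element, which IRF factors bind. Its shorter form reads GAAANNGAA. Iigp1 was not among the promoters searched. Each window has 80 bases from RefSeq, written 5′ to 3′ along the gene, with the extended core in capitals.
Igtp: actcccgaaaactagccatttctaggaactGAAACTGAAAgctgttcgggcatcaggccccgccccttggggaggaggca
Irgm2: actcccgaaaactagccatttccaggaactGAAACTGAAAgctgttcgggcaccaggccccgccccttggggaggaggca
Irgm1: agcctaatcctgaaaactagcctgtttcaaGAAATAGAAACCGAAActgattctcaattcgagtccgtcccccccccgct
Tgtp1: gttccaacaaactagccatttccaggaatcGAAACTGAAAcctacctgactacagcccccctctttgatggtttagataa
Tgtp2: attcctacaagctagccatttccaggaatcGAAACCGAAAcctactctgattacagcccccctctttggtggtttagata
These windows are, in GRCm38.p6, chr11:58199492-58199571 on the plus strand, chr11:58214883-58214962 on the plus strand, chr11:48871401-48871480 on the minus strand, chr11:48992274-48992353 on the minus strand and chr11:49064233-49064312 on the minus strand.

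Searched on both strands from 250 bases before to 50 after the gene start, the extended core was found in 5 of 5 of these promoters and in 3.44% of 32851 promoters in the table, and the shorter form GAAANNGAA in the same 5 and in 8.56% of all. Counted from the annotated start, the extended core began at −34 in Igtp, −64 in Irgm2, −77 in Tgtp1 and −70 in Tgtp2. Irgm1 had a pair of overlapping matches that began at −30 and −24. The letters TTCNNNGAA, known as the gamma-activated site, were found in 4 of the 5 promoters, not in that of Irgm1, and in 8.3% of all promoters. In each of these 4 the gamma-activated site lay just upstream of the response element. All windows were compared base by base, aligned on the first extended core without gaps. Those of Igtp and Irgm2 shared 78 of 80 bases (97.5%) and those of Tgtp1 and Tgtp2 53 of 80 (66.2%). That of Irgm1 shared 22 to 24 bases with each of the others. An inserted or missing base shifts the rest of a window, as after the element in Tgtp1 and Tgtp2. Such counts can therefore understate how alike the windows are. Motif matches and shared bases describe the letters alone and no factor was measured on these promoters.

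**Figure D1:**
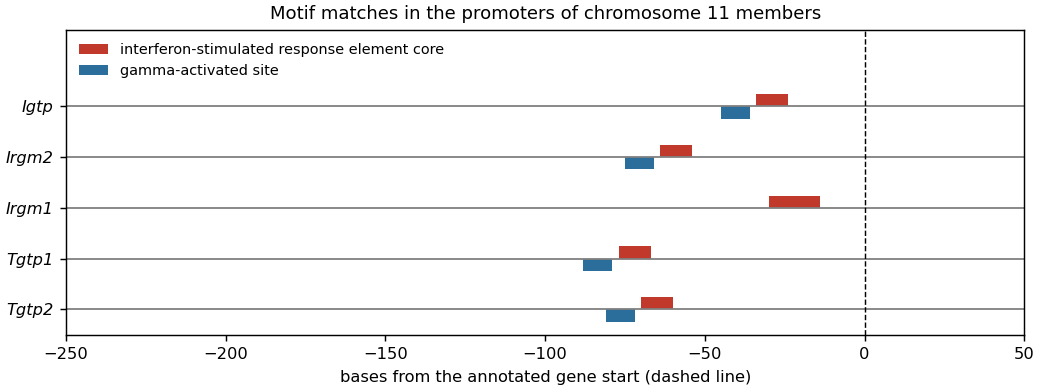
Matches in the promoters of Igtp, Irgm2, Irgm1, Tgtp1 and Tgtp2, with distance from the annotated gene start in bases on the horizontal axis and a grey line for the 300 bases searched. Red boxes are the extended core of the response element and blue boxes TTCNNNGAA. The red boxes begin between −77 and −24 in all 5, and Irgm1 alone has no blue box.

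Iigp1, an effector, had the highest genotype difference of all genes tested, at both ages. Its gene is the only one of the 6 listed that is not on chromosome 11 but on chromosome 18. The single Iigp1 feature read 1.97, 1.37 and 1.34 in the Il10-/- mice of 7 weeks, against −1.70, −2.28, −2.49 and −2.59 in the C57 mice of 7 weeks. It read 1.29, 1.52, 1.39 and 1.17 in the Il10-/- mice of 12 weeks, against −3.28, −2.86, −2.47 and −3.01 in the C57 mice of 12 weeks. Every Il10-/- mouse was above the pool and every C57 mouse below it. The lowest Il10-/- mouse exceeded the highest C57 mouse by 3.04 at 7 weeks and by 3.65 at 12 weeks. The log2 difference was 3.82 ± 0.21 (SE, 3 and 4 mice), a 14.2-fold difference, at 7 weeks and 4.25 ± 0.20 (4 and 4 mice), a 19-fold difference, at 12 weeks. At both ages it ranked 1 of 19076 genes from the highest.

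Tgtp1, an effector that reaches the vacuole early, was read by a pair of features that did not match. Feature 24011 gave 1.61, 0.92 and 0.94 in the Il10-/- mice of 7 weeks, against −0.95, −1.32, −1.48 and −1.60 in the C57 mice. It gave 1.72, 1.65, 1.38 and 1.21 in the Il10-/- mice of 12 weeks, against −1.77, −1.46, −1.38 and −1.46 in the C57 mice. These groups were well apart, with a log2 difference of 2.49 ± 0.18 (5.63-fold) at 7 weeks and 3.01 ± 0.16 (8.04-fold) at 12 weeks. Feature 18941, annotated with the same transcript record, gave 0.43, 0.41 and 0.36 against 0.55, 0.28, 0.04 and 0.32 at 7 weeks (Il10-/- and C57 mice) and 0.21, 0.24, 0.15 and −0.00 against 0.31, 0.56, 0.19 and −0.08 at 12 weeks. Its groups overlapped at both ages, with log2 differences of 0.10 ± 0.13 and −0.09 ± 0.12. The mean of both features, used as the gene value, differed by 1.30 ± 0.13 and 1.46 ± 0.12. Tgtp1 and Tgtp2 are near-identical genes, and the array names Tgtp1 alone, so signal from Tgtp2 in these features cannot be told apart.

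Igtp, a regulator, had the profile nearest to that of Iigp1 among the 5 genes, with a mean absolute difference of 0.54 over the 15 arrays after each gene was centred on its mean. It read 1.62, 1.18 and 1.03 in the Il10-/- mice of 7 weeks, against −0.63, −1.58, −1.89 and −1.96 in the C57 mice. At 12 weeks it read 0.99, 1.07, 1.09 and 0.67 in the Il10-/- mice, against −2.64, −1.97, −1.88 and −2.20 in the C57 mice. The groups were apart by 1.66 at 7 weeks and 2.54 at 12 weeks from the lowest Il10-/- to the highest C57 mouse. The log2 difference was 2.79 ± 0.26 (6.94-fold, rank 6 from the highest) at 7 weeks and 3.13 ± 0.25 (8.73-fold, rank 4) at 12 weeks.

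Irgm2, the direct neighbour of Igtp with an almost identical promoter window, differed less. It read 1.19, 0.91 and 0.78 in the Il10-/- mice of 7 weeks, against −0.46, −0.97, −1.07 and −1.22 in the C57 mice. At 12 weeks it read 0.51, 0.68, 0.99 and 0.34 in the Il10-/- mice, against −1.60, −1.21, −1.09 and −1.48 in the C57 mice. No Il10-/- mouse was as low as a C57 mouse. The log2 difference was 1.89 ± 0.18 (3.71-fold) at 7 weeks and 1.97 ± 0.17 (3.93-fold) at 12 weeks, which ranked 19 and 24 from the highest.

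Irgm1, a regulator that also acts in autophagy and survival of immune cells, had 3 features. Feature 3428 read 0.95, 0.96 and 0.71 in the Il10-/- mice of 7 weeks, against 0.26, −0.58, −0.75 and −0.78 in the C57 mice. At 12 weeks it read 0.77, 1.04, 0.88 and 0.61 in the Il10-/- mice, against −1.04, −0.89, −0.68 and −0.80 in the C57 mice. The groups did not overlap at either age. Feature 27258, with the same transcript record, gave differences of 1.32 ± 0.18 and 1.67 ± 0.16, close to the 1.34 ± 0.19 and 1.67 ± 0.18 of feature 3428. Feature 17050, annotated with another cDNA record, read between 0.04 and 0.17 in Il10-/- mice and between −0.19 and 0.00 in C57 mice at 7 weeks, and between −0.20 and 0.20 against −0.27 and 0.03 at 12 weeks. Its groups lay just apart at 7 weeks and overlapped at 12 weeks, with differences of 0.19 ± 0.10 and 0.10 ± 0.09. The mean of the 3 features differed by 0.95 ± 0.13 (1.93-fold, rank 100) and 1.15 ± 0.12 (2.21-fold, rank 85), the smallest difference of the 5 genes.

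**Figure D2:**
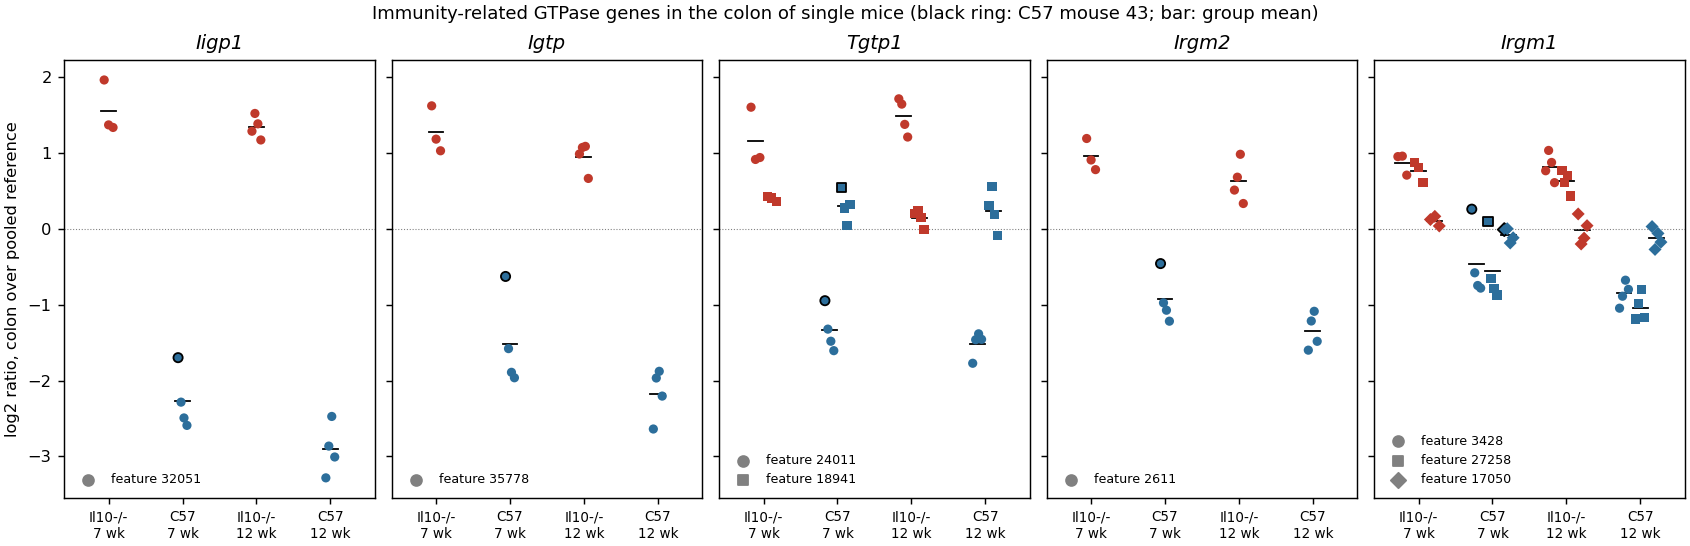
Log2 ratio of colon over pool (vertical axis) in each mouse for the 8 features of the 5 genes, one panel per gene, with Il10-/- mice in red, C57 mice in blue, marker shape for the feature and a bar for the group mean. Red lies above blue for Iigp1, Igtp, Irgm2, Tgtp1 feature 24011 and Irgm1 features 3428 and 27258, and the colours overlap for Tgtp1 feature 18941 at both ages and Irgm1 feature 17050 at 12 weeks. The ringed C57 mouse 43 is the highest of its group in all these 6 separated features.

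By the feature with the largest spread, the order of the differences was Iigp1, Igtp, Tgtp1, Irgm2, Irgm1 at both ages. For Tgtp1 and Irgm1 that feature was also the one with the largest genotype difference, so the order depends on this choice. By the gene values, Irgm2 (1.89 at 7 weeks and 1.97 at 12 weeks) lay above Tgtp1 (1.30 and 1.46). The other places in the order were unchanged. Iigp1 stood clear of the rest. The ranges of 1 SE overlapped between Igtp and Tgtp1 feature 24011 at both ages, and between Irgm2 and Irgm1 feature 3428 at 12 weeks but not at 7 weeks. All 5 genes were called (at least 1.5-fold apart with a limma adjusted p below 0.05) in both genotype comparisons, as did 1.4% of all genes in the higher direction at 7 weeks and 1.5% at 12 weeks. The median difference of the 5 was 1.89 at 7 weeks and 1.97 at 12 weeks, against −0.01 and −0.00 over all genes. All 5 gene values lay higher in every Il10-/- mouse than in any C57 mouse, as did 10.8% of all genes at 7 weeks and 6.48% at 12 weeks. Of the 8 features, 6 passed at each age, against 1.3% and 1.59% of all features in that direction. The genes were chosen with these comparisons in view, so nothing is read from these counts.

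**Figure D3:**
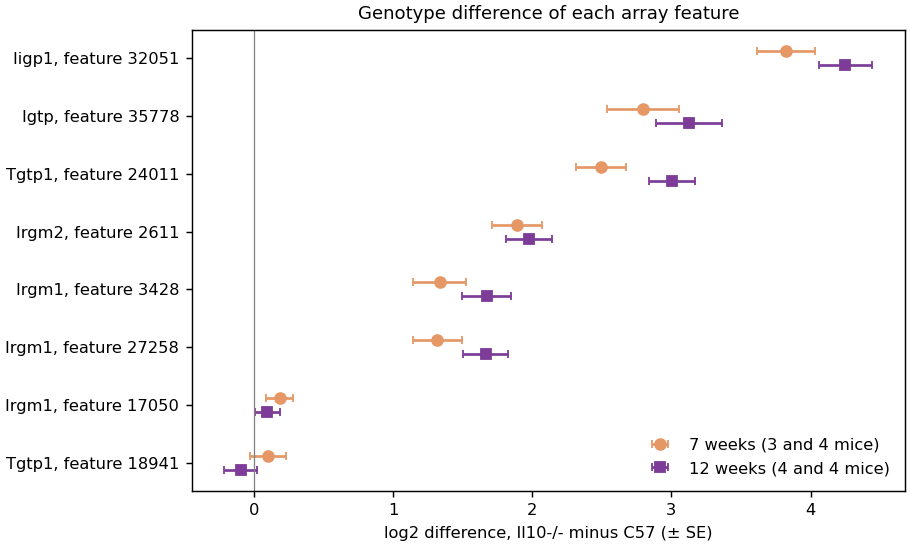
Log2 difference of Il10-/- minus C57 mice (horizontal axis) with its SE for each of the 8 features, at 7 weeks (circles) and 12 weeks (squares). The differences run from 4.25 for Iigp1 at 12 weeks to −0.09 for Tgtp1 feature 18941 at 12 weeks, with 2 features near 0.

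In whole colon, fewer cells of a type and less RNA per cell cannot be told apart. Of 12 T cell and NK cell markers, 0 passed the test at 7 weeks (limma, 2 at an unadjusted p under 0.05), and their mean per mouse lay between −0.11 and 0.03 in Il10-/- mice against −0.13 to −0.09 in C57 mice. At 12 weeks 1 of 12 was called higher, the granule protease gene Gzmb, and 7 of 12 were higher at the unadjusted p. Mouse means of the list were 0.01 to 0.17 against −0.17 to −0.13. Of 11 macrophage and dendritic cell markers, 0 passed at 7 weeks (1 higher at the unadjusted p). Mouse means were −0.01 to 0.23 in Il10-/- against −0.08 to 0.18 in C57 mice. At 12 weeks 4 were called higher, among them the complement genes C1qa and C1qc, and 6 were higher at the unadjusted p. Mouse means were then 0.28 to 0.40 against −0.17 to 0.18. Of 11 neutrophil markers, 2 were called higher at both ages, S100a8 and S100a9, and 3 were higher at the unadjusted p at each age. Mouse means were 0.13 to 0.36 against −0.21 to −0.12 at 7 weeks and 0.27 to 0.63 against −0.20 to −0.01 at 12 weeks. The median difference of the 11 was only 0.06 at 7 weeks and 0.11 at 12 weeks, with 8 and 7 of them above 0. Of 9 B and plasma cell markers, 0 passed at 7 weeks (1 higher and 2 lower at the unadjusted p, −0.01 to 0.14 against 0.01 to 0.13). At 12 weeks 3 were called higher (6 higher and 1 lower at the unadjusted p, 0.51 to 0.64 against −0.02 to 0.20). Of 9 smooth muscle markers, 0 passed at 7 weeks (2 lower at the unadjusted p). Mouse means were 0.27 to 0.49 in Il10-/- against 0.44 to 0.60 in C57 mice. At 12 weeks 3 were called lower (6 lower at the unadjusted p, −0.12 to 0.42 against 0.13 to 0.72). Of 16 colon epithelium markers, 1 was called higher at 7 weeks (4 higher at the unadjusted p, 0.68 to 0.79 against 0.57 to 0.72). At 12 weeks 1 was called lower (6 lower and 3 higher at the unadjusted p, 0.50 to 0.64 against 0.63 to 0.95). Of 7 goblet cell markers, 0 passed at 7 weeks (1 higher at the unadjusted p) and 1 was called lower at 12 weeks (2 lower at the unadjusted p). Of 8 fibroblast and 8 endothelium markers, 0 passed at either age (limma). At 7 weeks all 8 of each list were lower as measured, 3 of each at the unadjusted p, with mouse means of −0.68 to −0.37 against −0.39 to −0.07 for fibroblasts and −0.44 to −0.35 against −0.25 to −0.23 for endothelium. At 12 weeks 3 fibroblast markers were higher and 1 endothelium marker lower at the unadjusted p, with mouse means of −0.37 to −0.20 against −0.57 to −0.14 and −0.28 to −0.21 against −0.34 to −0.14. Over all 19076 genes, 4050 at 7 weeks and 4360 at 12 weeks had an unadjusted p under 0.05 in either direction. The part of these cells in the differences of the GTPases was not tested.

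Age was not used to choose the genes and was tested. Within Il10-/- mice none of the 5 passed between 12 and 7 weeks. The mice of 12 weeks had moderate colitis and those of 7 weeks had none, so age and colitis cannot be told apart here. Iigp1 averaged 1.34 ± 0.15 at 12 weeks and 1.56 ± 0.35 at 7 weeks (SD, 4 and 3 mice). The differences of 12 minus 7 weeks were −0.22 ± 0.21 for Iigp1, −0.33 ± 0.26 for Igtp, −0.33 ± 0.18 for Irgm2, −0.11 ± 0.13 for Irgm1 and 0.04 ± 0.13 for Tgtp1, with limma adjusted p values between 0.44 and 0.92. The Tgtp1 value averages features of opposite sign, 0.33 ± 0.18 for feature 24011 and −0.25 ± 0.13 for feature 18941, neither of which passed. At an unadjusted p under 0.05, 0 of 5 passed. Over all genes, 0.419% were called in this comparison.

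Within C57 mice, all 5 genes read lower at 12 weeks than at 7 weeks, and none passed the test. Iigp1 averaged −2.91 ± 0.34 at 12 weeks and −2.27 ± 0.40 at 7 weeks (SD, n = 4 each), and Igtp averaged −2.17 ± 0.34 and −1.51 ± 0.62. The differences of 12 minus 7 weeks were −0.64 ± 0.20 for Iigp1 (limma adjusted p = 0.16), −0.66 ± 0.25 for Igtp (0.25), −0.42 ± 0.17 for Irgm2 (0.30), −0.31 ± 0.12 for Irgm1 (0.29) and −0.12 ± 0.12 for Tgtp1 (0.72). At an unadjusted p under 0.05, 4 of 5 passed, as did 2512 of all 19076 genes. Over all genes, 0.404% were called at the adjusted p and the fold of 1.5 and the median difference was 0.00. Without C57 mouse 43, the differences shrank to −0.45 for Iigp1, −0.36 for Igtp, −0.26 for Irgm2, −0.15 for Irgm1 and −0.01 for Tgtp1, and 1 of 5 passed at the unadjusted p.

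The genotype difference was larger at 12 weeks than at 7 weeks in all 5 genes as measured, by 0.42 ± 0.29 for Iigp1, 0.33 ± 0.36 for Igtp, 0.20 ± 0.18 for Irgm1, 0.16 ± 0.18 for Tgtp1 and 0.08 ± 0.25 for Irgm2. None of these interactions passed, with limma adjusted p values between 0.49 and 0.90, 0 of 5 at an unadjusted p under 0.05, and 1.15% of all genes called. Without C57 mouse 43 the interactions were 0.24 for Iigp1, 0.04 for Igtp, 0.04 for Irgm1, 0.05 for Tgtp1 and −0.08 for Irgm2. Since both comparisons of age use the mice of the genotype comparisons, these values are not separate from them.

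Within a group, the highest or the lowest mouse was mostly the same from gene to gene. Among the C57 mice of 7 weeks, mouse 43 was the highest for 5 of 5 genes, with a mean over the genes of −0.57 against −1.15, −1.35 and −1.40 in mice 44, 45 and 46. Among the Il10-/- mice of 7 weeks, mouse 75 was the highest (mean 1.29) and mouse 78 the lowest (0.85) for 5 of 5 genes. Among the Il10-/- mice of 12 weeks, mouse 96 was the lowest for 5 of 5 genes, with a mean of 0.63 against 0.87, 0.94 and 0.94. Among the C57 mice of 12 weeks, mouse 63 was the lowest for 4 of 5 genes (mean −1.80) and mouse 65 the highest for 4 of 5 (−1.31). The 5 genes of a mouse share 1 array.

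Mouse 43 stood apart in other interferon-inducible genes too. Its excess over the mean of the other C57 mice of 7 weeks was 1.18 for Igtp, 0.76 for Iigp1, 0.64 for Irgm1, 0.63 for Irgm2 and 0.43 for Tgtp1. The mean of 16 genes induced mainly by type I interferon was 0.41 in mouse 43 and −0.32 to −0.17 in the other C57 mice of 7 weeks. That of 13 large interferon-inducible GTPases was 0.00 against −0.33 to −0.20. That of 29 other targets of interferon gamma was 0.01 against −0.27 to −0.08. Ifi47 read 0.50 in mouse 43 and −0.84 to −0.31 in the others, and Gbp3 0.31 and −1.02 to −0.58. Isg15, a ubiquitin-like protein, read 0.40 in mouse 43 and −1.16 to −1.05 in the others, and Ifit1, a sensor of foreign RNA, 0.85 and −0.77 to −0.39. These single genes were picked after the values of the lists were seen. Ifng read −0.10 in mouse 43 and 0.00 to 0.15 in the others. Its T cell and NK cell mean was −0.09, against −0.13 to −0.09, and its neutrophil mean −0.21, against −0.21 to −0.12. What set mouse 43 apart was not tested. With mouse 43 left out, the genotype differences at 7 weeks were 4.01 for Iigp1, 3.09 for Igtp, 2.05 for Irgm2, 1.40 for Tgtp1 and 1.11 for Irgm1.

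**Figure D4:**
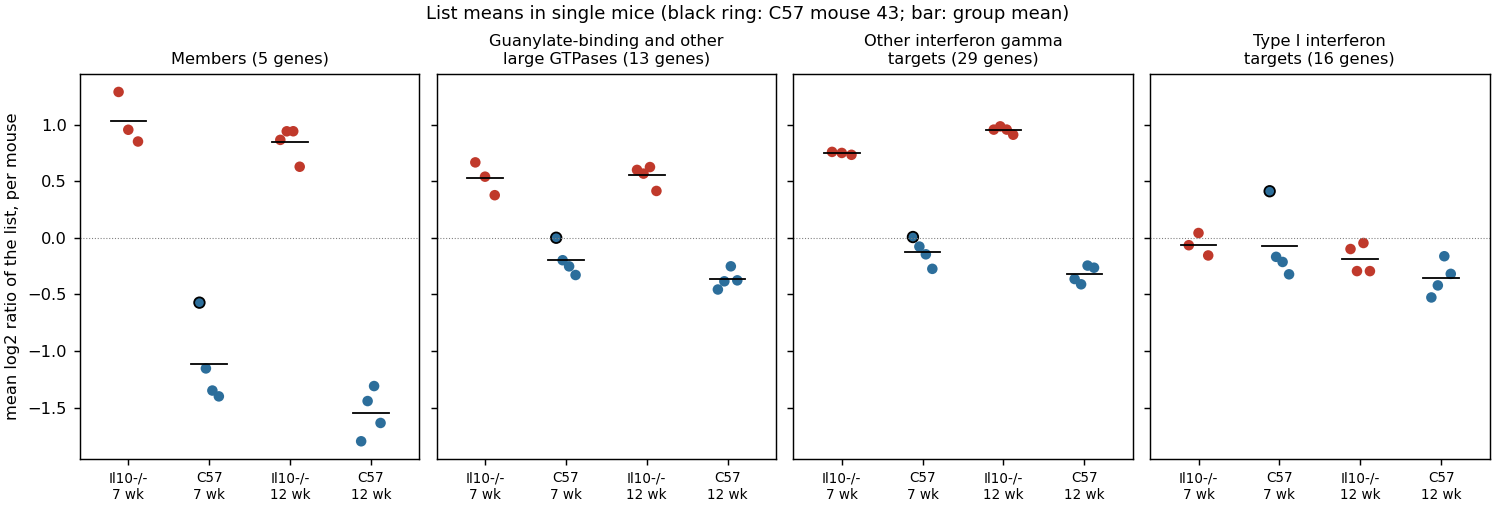
Mean log2 ratio per mouse (vertical axis) of the 5 immunity-related GTPase genes, 13 large interferon-inducible GTPases, 29 other targets of interferon gamma and 16 targets of type I interferon, with Il10-/- mice in red, C57 mice in blue and a bar for the group mean. The 7 red points lie above the 8 blue points in the first 3 panels, and in the last the ringed C57 mouse 43, at 0.41, is the highest of all 15 mice.

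Of the inducers and carriers of the interferon signal, 4 of 21 measured genes passed with higher values in Il10-/- mice at 7 weeks, 3 of 21 did so at 12 weeks, and 0 were lower. Ifng, interferon gamma itself, averaged 0.44 ± 0.09 in Il10-/- mice and 0.02 ± 0.10 in C57 mice at 7 weeks (SD, 3 and 4 mice), a difference of 0.42 ± 0.10 that stayed under the fold of 1.5, and 0.83 ± 0.13 and 0.09 ± 0.17 at 12 weeks, a difference of 0.74 ± 0.09 that passed. Irf8, a transcription factor that pairs with IRF1, was higher by 0.80 ± 0.11 and 0.86 ± 0.10. Stat2, which carries the type I signal, was higher by 0.72 ± 0.18 and 0.81 ± 0.17. At 7 weeks Stat2 was no longer called with only the groups compared (limma adjusted p = 0.051) or in 5 of 7 fits without 1 mouse (C57 mouse 44, 45 or 46, or Il10-/- mouse 77 or 78, adjusted p 0.063 to 0.086). Irf1 was higher by 0.65 ± 0.12 at 7 weeks and differed by 0.56 ± 0.11 at 12 weeks, under the fold of 1.5, with features that ranged from −0.13 to 1.29 at 7 weeks. At 7 weeks the Irf1 difference stayed under the fold of 1.5 after quantile normalization (0.56) or without C57 mouse 46 (0.55), and at 12 weeks it passed on the feature with the largest spread (1.13), on features with values on all arrays (0.84) or without C57 mouse 66 (0.61). Il18, a cytokine that drives interferon gamma production, was higher by 0.83 ± 0.12 at 7 weeks and differed by −0.36 ± 0.11 at 12 weeks. At an unadjusted p under 0.05, 0 of the 21 were lower at 7 weeks and 2 at 12 weeks. The median over the 21 genes was 0.10 and 0.24.

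The guanylate-binding proteins are larger interferon-inducible GTPases that follow the family to pathogen vacuoles. The list of 13 measured genes also holds other large interferon-inducible GTPases, Gvin1, Mx1 and Mx2. Of the 13, 7 were higher at 7 weeks and 8 at 12 weeks, Gvin1 among them at both ages. None were lower, also at an unadjusted p under 0.05, and the medians were 0.62 and 0.82. Gbp2 averaged 1.52 ± 0.24 in Il10-/- mice and −0.47 ± 0.24 in C57 mice at 7 weeks, and 1.42 ± 0.21 and −0.57 ± 0.14 at 12 weeks, a difference of 1.99 at both ages. Gbp4 was higher by 1.56 ± 0.11 and 1.88 ± 0.10, Gbp11 by 1.27 ± 0.11 and 1.59 ± 0.10, and Gbp3 by 1.12 ± 0.23 and 1.61 ± 0.22. Of 8 other immunity-related GTPase genes measured, 1 was higher at each age, the effector Ifi47, by 1.48 ± 0.21 and 1.86 ± 0.19. Gm12250, the gene beside Igtp, an effector, differed by 0.36 ± 0.11 and 0.36 ± 0.10, under the fold of 1.5. The medians of the 8 were 0.13 and 0.21.

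Among 29 other targets of interferon gamma, 15 were higher at 7 weeks and 19 at 12 weeks, with 0 lower, also at an unadjusted p under 0.05, and medians of 0.80 and 1.08. Ubd, a ubiquitin-like tag, was higher by 2.89 and 3.74 and Ido1, which degrades tryptophan, by 2.73 ± 0.18 and 3.02 ± 0.17. Cd74, the invariant chain of MHC class II, was higher by 2.01 ± 0.16 and 2.45 ± 0.15 and the immunoproteasome subunit Psmb8 by 1.23 ± 0.12 and 2.40 ± 0.11. In this list 7 of 29 had a larger genotype difference at 12 than at 7 weeks (interaction, limma), 5 without mouse 43, against 0 of the 5 immunity-related GTPase genes. The difference between these counts was not tested. Among 8 feedback inhibitors of interferon signalling, 2 were higher at 7 weeks and 3 at 12 weeks. Socs1 was higher by 1.58 ± 0.15 and 1.41 ± 0.14 and Socs3 by 1.73 ± 0.16 and 1.67 ± 0.15, and Usp18, which damps the type I receptor, was higher at 12 weeks (0.73 ± 0.19), a call lost without C57 mouse 63 or Il10-/- mouse 92 or 95 (limma adjusted p = 0.054, 0.065 and 0.056).

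Of 16 targets mainly of type I interferon, 0 passed at 7 weeks (limma, 2 higher and 1 lower at an unadjusted p under 0.05). Without mouse 43, 1 was called higher at 7 weeks, and 5 passed at the unadjusted p in either direction. The median at 7 weeks was then 0.15, with 3 of 16 below 0. At 12 weeks 1 was called higher, Ifit2, by 1.05 ± 0.16. The features of Ifit2 gave 0.14 and 0.82 at 7 weeks, and 0.47 and 1.62 at 12 weeks. At 7 weeks Ifit2 was called on the feature with the largest spread (0.82, limma adjusted p = 0.035). It was also called at 7 weeks without mouse 43 (0.70, limma adjusted p = 0.00058). With all mice, the medians of the list were 0.01 and 0.10, with 9 and 11 of 16 above 0. Of 15 genes of autophagy and of the vacuole partners of the GTPases, 0 passed at 7 weeks and 0 at 12 weeks (limma), with medians of −0.03 and −0.01. At an unadjusted p under 0.05, 2 were higher and 3 lower at 7 weeks, and 2 higher and 2 lower at 12 weeks.

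**Figure D5:**
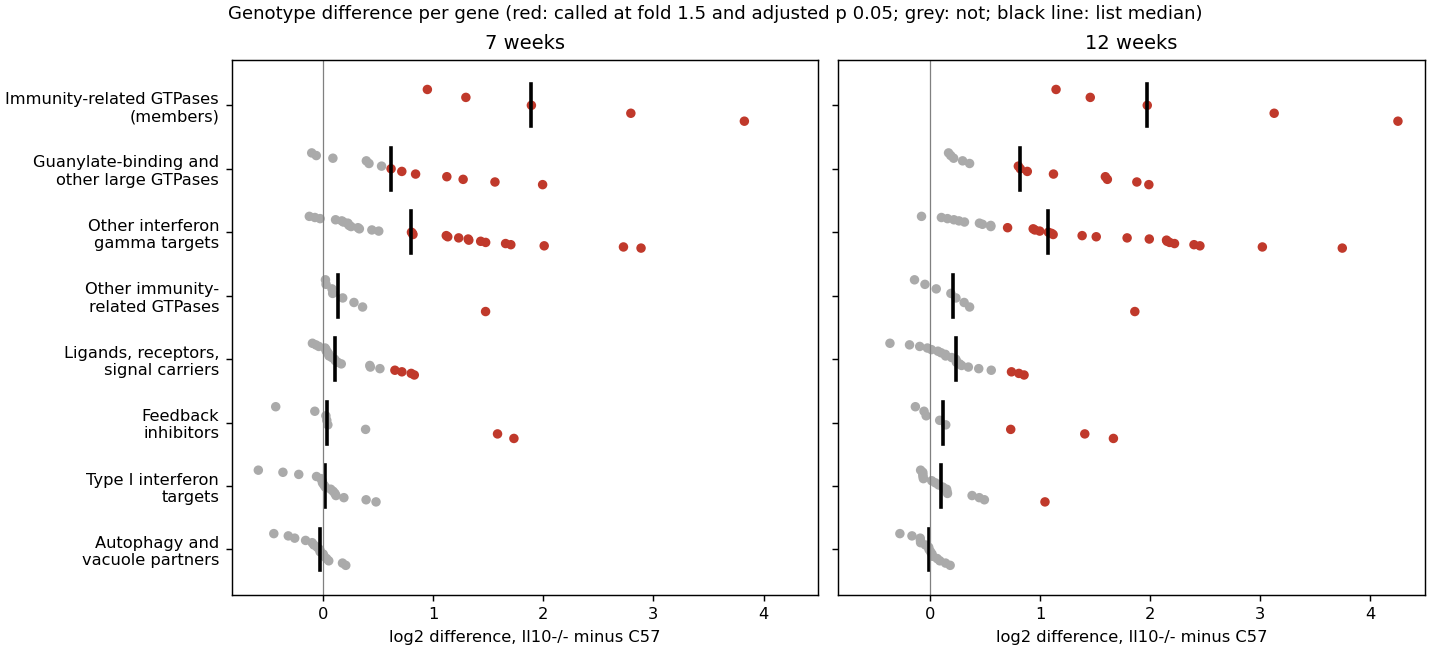
Log2 difference of Il10-/- minus C57 mice (horizontal axis) for each gene of the family and of 7 pathway lists (rows), at 7 weeks (left) and 12 weeks (right), with genes called at a fold of 1.5 in red, others in grey and a black line at the list median. The medians of the listed GTPases, 1.89 and 1.97, lie to the right of those of the 7 other lists. Those run from −0.03 to 0.80 at 7 weeks and from −0.01 to 1.08 at 12 weeks. The GTPases were chosen with these differences known, so nothing is read from this order.

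The genes whose profile lay nearest to the mean of the 5 were ranked by mean absolute difference over the 15 arrays among 18711 genes, each centred on its mean. The nearest 10 were Gbp2 (0.20), the chemokine gene Cxcl10 (0.22), AW112010 (0.22), the immunoproteasome gene Psmb9 (0.23), Cd74 (0.23), the chemokine gene Cxcl9 (0.25), H2-DMb1 (0.27), which loads peptides on MHC class II, Psmb8 (0.29), Ifi47 (0.30) and Gbp4 (0.32). The ranking uses all 4 groups and so mostly the genotype difference, and it is a description.

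Other measured genes lying between or beside these GTPases on chromosome 11 did not share their differences. Within and around the group of Irgm1, Tgtp1 and Ifi47, the 9 measured neighbours differed by −0.14 to 0.28 at 7 weeks and −0.18 to 0.19 at 12 weeks. Those lying within it, Gm5431, Gm12185 and 9930111J21Rik2, also belong to the list of other immunity-related GTPase genes. Beside the group of Gm12250, Igtp and Irgm2, the 6 measured neighbours differed by −0.17 to 0.43 at 7 weeks and −0.27 to 0.22 at 12 weeks.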

How the data were processed

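Total RNA of full-thickness colon was hybridized on 15 two-colour Agilent arrays, and the authors normalized each array by LOESS in limma without background correction and deposited log2 ratios of sample over pool. These log2 values were used as deposited. Spot intensities were not used here, so signal over background is unknown and the number of arrays limits the precision. Gene symbols came from the platform annotation, and sequences, names and gene order from RefSeq (GRCm38.p6). A feature was kept if at least 2 arrays in each group held a value (42128 of 44290). Features annotated with 1 gene only were averaged to a gene value (32016 features, 19076 genes).

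Differences, SE and p-values came from limma 3.58.1 in R 4.3.3 (lmFit and eBayes on 4 group means, all 15 arrays, Benjamini-Hochberg over all genes). A call needs a fold of 1.5 and an adjusted p under 0.05. Summaries and figures used Python 3.11.15 and pandas 2.3.3. The fit was also run on simulated data with known folds and noise drawn separately for each gene. Genes that move together within a mouse were not simulated. The members, the lists and the rule for named genes (members, Ifng, Irf1, Ifi47, Gm12250, Il10, up to 4 called genes per list, and the 10 nearest profiles) were chosen with earlier results of these data known, and 1 further gene of the rule is not reported here. Neighbouring genes, cell type markers and genes of mouse 43 were added outside that rule. Each array is 1 mouse, so p-values measure the spread between mice. Alternatives tried were median centring, quantile normalization, only the groups compared, array weights for the interaction, the feature with the largest spread, genes with values on all arrays, values shared exactly by 5 or more features set aside, no fold threshold and leaving out each mouse. A planned comparison of protein sequences was not made.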

Additional observations from a re-analysis of the deposited data

Results flagged for a closer look

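In the C57 mice of 12 weeks, the Irgm1 gene value of mouse 65, −0.51, lay far above those of the other 3 mice, −0.73 to −0.71, by Dixon's test (ratio 0.91). This value is a mean of features in which the other mice lay further apart. Mouse 65 read −0.68 against −1.04 to −0.80 in feature 3428 and −0.80 against −1.19 to −0.98 in feature 27258. In feature 17050 mouse 63, at 0.03, was above mouse 65, at −0.06. Chance flags about 1 in 20 groups of 4. The genotype difference of Irgm1 at 12 weeks stayed between 1.11 and 1.20 when any 1 mouse was left out. Psmb8 had a larger genotype difference at 12 weeks than at 7 weeks, by 1.17 (limma interaction, adjusted p = 0.0024). From 7 to 12 weeks Psmb8 changed by −0.74 in C57 mice, which was called (limma adjusted p = 0.0033). In Il10-/- mice it changed by 0.43, which was not called (limma adjusted p = 0.088). Il18 had a smaller genotype difference at 12 weeks, by −1.19 (adjusted p = 0.0024). The 4 Il10-/- mice of 12 weeks read between −0.59 and −0.42 for Il18 and the 3 Il10-/- mice of 7 weeks between 0.43 and 0.74. Neither is an immunity-related GTPase gene, and the causes were not tested.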

How the results depend on the processing

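No paired analysis was possible because the mouse numbers are unique to a mouse. No result changed direction past the threshold. With the feature of largest spread per gene, the genotype difference of Irgm1 was 1.34 at 7 weeks and 1.67 at 12 weeks, that of Tgtp1 2.49 and 3.01, genes called higher at 7 weeks numbered 418, against 268 as reported, and 1 list gene was lower at 7 weeks, as with quantile normalization (1). With no fold threshold, genes called at 7 weeks were 786 higher and 779 lower (268 and 193 as reported), at 12 weeks 986 and 943 (286 and 195), between ages in Il10-/- mice 172 and 92 (57 and 23), in C57 mice 137 and 67 (44 and 33), for the interaction 195 and 235 (94 and 125), and list genes called lower 2 at 7 weeks and 3 at 12 weeks. With only the groups compared, 11 genes were lower with age in Il10-/- mice. Leaving out each mouse in turn, the genotype differences at 7 weeks ranged from 3.62 to 4.01 for Iigp1, 2.62 to 3.09 for Igtp, 1.78 to 2.05 for Irgm2, 1.18 to 1.40 for Tgtp1 and 0.87 to 1.11 for Irgm1, genes called from 210 to 293 higher and 123 to 205 lower at 7 weeks, 273 to 311 and 173 to 249 at 12 weeks, 37 to 69 and 14 to 44 with age in Il10-/- mice, 27 to 51 and 9 to 45 with age in C57 mice, and 57 to 128 and 79 to 155 for the interaction, and list genes called lower at 7 weeks from 0 to 1. None of the age differences or interactions of the 5 genes was called under any of these settings. The array names no Tgtp2 feature, a pair of features of the 5 genes stayed near 0, and groups of 3 or 4 mice may leave small age differences undetected.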
